A study of Mus musculus with 3 samples.

Results

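The primitive erythroblasts of control mouse embryos at E10.5 are described here by the abundance of every gene in their single library, which is 1 of the 3 libraries of the series. The library was chosen by its labels: CD71+ Ter119-high cells sorted from peripheral blood of embryos with the genotype Drosha fl/fl or Drosha fl/+, labelled WT for Drosha abundance. A floxed allele of Drosha, which makes the first cut in the processing of microRNAs, was thus carried by the controls as well, and their label names no Cre. The other libraries come from Drosha fl/fl;cdh5-cre+ embryos of the same age, in which a Cre named for the endothelial gene Cdh5 deletes the floxed allele, and are not described here. The design text gives pools of 5 embryos. Total RNA was sequenced, and 15058 genes carry a value for the control library, of which 13269 had at least 1 count among 9497434 counts in all. With 1 library there is no estimate of variation between pools, so no test between conditions was made. Each interval below is an exact 95% interval that covers the counting error of reads only. The sources mention no molecular identifiers, so several reads can come from the same molecule, and the intervals may then be too narrow.

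Primitive erythroblasts are the first blood cells of the embryo. They arise in the yolk sac, enter the circulation while still nucleated, and divide and mature there as one wave before the fetal liver releases definitive red cells. A maturing erythroblast fills itself with haemoglobin, which joins α-like and β-like globin chains to heme. Primitive cells use embryonic globins, ζ from Hba-x on the α-like side and εy and βh1 from Hbb-y and Hbb-bh1 on the β-like side, whereas definitive cells use the adult α and β genes. Iron enters through the transferrin receptor CD71 (Tfrc), heme is built partly in the mitochondrion from the step of Alas2, and the membrane is shaped by a spectrin skeleton anchored to the anion exchanger band 3 (Slc4a1). Gata1 and Klf1 are the transcription factors best known for switching on these genes. Ter119 is an antigen of the red-cell surface.

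The 3 promoter windows stand for the most abundant α-like gene, the most abundant β-like gene and the enzyme that commits cells to heme. Each runs from 250 bases before to 50 bases after the annotated start, on the gene's own strand, taken from RefSeq on GRCm38.p6. Hba-x lies at chr11:32276350-32276649 (plus strand), Hbb-y at chr7:103853158-103853457 (minus strand) and Alas2 at chrX:150547167-150547466 (plus strand). Capitals mark the letters GATAA (read by GATA factors), CCACCC (read by Klf1 and related factors), TATAAA (the TATA box) and CCAAT (read by NF-Y), or their reverse complements.
Hba-x: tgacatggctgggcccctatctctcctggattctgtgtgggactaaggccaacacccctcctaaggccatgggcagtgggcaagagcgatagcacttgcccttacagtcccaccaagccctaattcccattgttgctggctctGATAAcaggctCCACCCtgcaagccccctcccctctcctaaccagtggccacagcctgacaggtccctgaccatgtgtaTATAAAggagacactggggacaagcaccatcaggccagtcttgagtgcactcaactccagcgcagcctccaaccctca
Hbb-y: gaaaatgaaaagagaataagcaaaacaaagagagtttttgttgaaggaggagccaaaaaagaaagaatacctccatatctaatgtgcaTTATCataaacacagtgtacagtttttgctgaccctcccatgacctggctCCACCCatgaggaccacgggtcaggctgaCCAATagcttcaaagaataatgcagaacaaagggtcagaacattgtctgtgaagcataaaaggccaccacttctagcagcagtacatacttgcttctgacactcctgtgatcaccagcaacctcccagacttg
Alas2: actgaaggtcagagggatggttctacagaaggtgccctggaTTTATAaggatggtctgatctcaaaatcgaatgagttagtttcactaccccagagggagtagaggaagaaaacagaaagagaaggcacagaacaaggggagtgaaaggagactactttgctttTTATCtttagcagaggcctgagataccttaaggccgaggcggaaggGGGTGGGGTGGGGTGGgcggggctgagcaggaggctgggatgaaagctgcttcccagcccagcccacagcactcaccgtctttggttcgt
In the Hba-x window GATAA began 107 bases, CCACCC 96 bases and TATAAA 28 bases upstream of the start. The Hbb-y window held GATAA on the reverse strand 162 bases upstream, CCACCC at 112 and CCAAT at 83. In the Alas2 window GATAA stood on the reverse strand 86 bases upstream, and 3 overlapping reverse CCACCC matches began 40, 35 and 30 bases upstream. A reverse TATAAA match lay 209 bases upstream of Alas2. No matches of different motifs overlapped in these windows. Such letter matches describe the sequence and do not show that a factor binds there.

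All 8 genes that mark the cells stood far above the typical gene. Levels are compared between genes in FPKM, the authors' fragment counts divided by gene length and library size. The median FPKM over the 15055 listed genes outside ribosomal RNA was 1.72. Hba-x stood at 202856 FPKM (1083439 counts), Hbb-y at 163379 (855491 counts) and Hbb-bh1 at 63876 (328997 counts). Slc4a1 reached 1047 FPKM (interval 1037 to 1057) from 45014 counts. Alas2 reached 406 FPKM (397 to 415) and Tfrc 216 FPKM (212 to 221). The transcription factors were lower, Klf1 at 90.3 FPKM (85.4 to 95.5) and Gata1 at 36.2 FPKM (33.4 to 39.1). The markers therefore spanned more than 3 orders of magnitude, from the regulators to the proteins that fill the cell.

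Most of the messenger RNA of the listed genes came from very few genes. Ribosomal RNA rows (Rn28s1, Rn18s and Rn45s) took 28.7% of the counts and are left out of what follows unless stated. Of the remaining FPKM, 50% lay in 2 genes, 75% in 61, 90% in 823 and 99% in 5790 genes. Hba-x alone held 27.8% and the 3 embryonic globins together 59.0%. By counts, which weight long genes more, the same 3 genes held 33.5%, and 50% of counts needed 81 genes. Long-tailed as this is, 8474 of 15055 listed genes (56.3%) stood at 1 FPKM or more, 3287 (21.8%) at 10 or more and 342 (2.27%) at 100 or more.

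**Figure D1:**
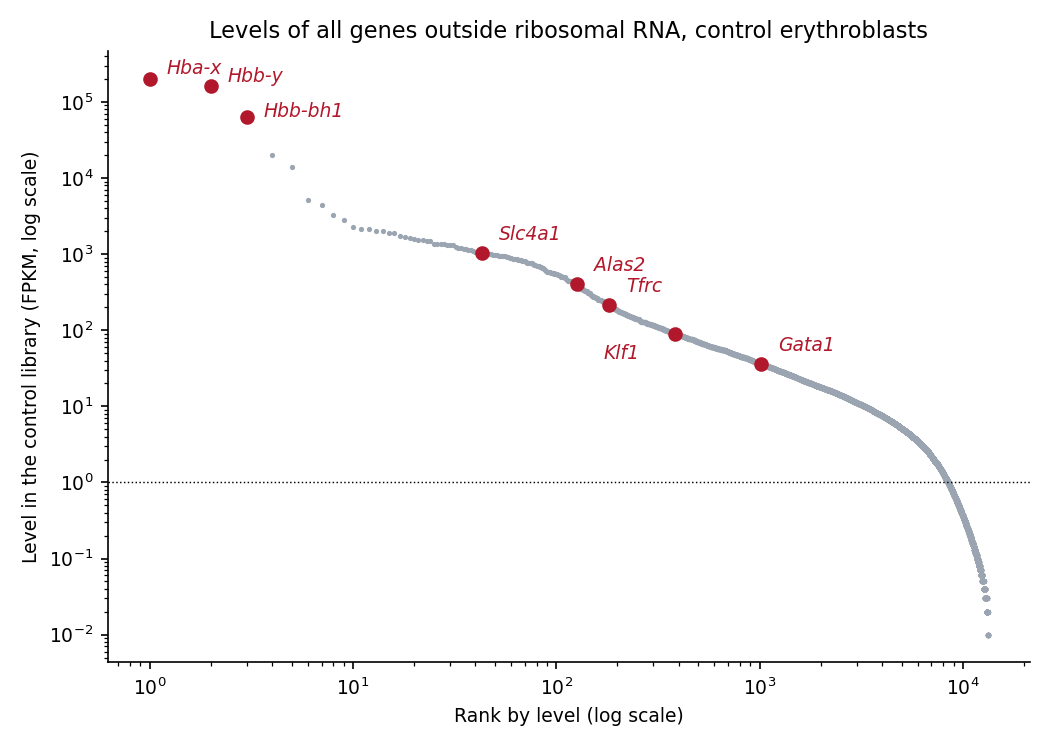
Each gray point is 1 gene outside ribosomal RNA, placed by its rank (log scale) and its level in FPKM (log scale) in the control library, with the 8 marker genes in red and a dotted line at 1 FPKM. The 3 embryonic globins stand apart at the upper left, Slc4a1, Alas2 and Tfrc lie above 100 FPKM, and the curve falls away steeply below 1 FPKM.

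The most abundant genes by FPKM were short. FPKM divides counts by gene length, and how much of the trend this ranking makes was not tested. The 47 genes at 1000 FPKM or more had a median length of 737 bases and held 73.3% of the FPKM, and the 295 genes from 100 to 1000 FPKM had a median length of 1200 bases. Median length was 2364 bases from 10 to 100 FPKM (2945 genes), 2986 bases from 1 to 10 (5187 genes) and 3092.5 bases above 0 to 1 (4804 genes). The lowest class had a median of 5 counts a gene, and the 1777 listed genes at 0 counts had a median length of 2308 bases. A floor of 3 counts corresponds to 0.316 CPM, which is 0.336 FPKM for a gene of 1000 bases and 0.064 FPKM for one of 5000, and a gene listed at 0 may lie anywhere up to it. Protein-coding genes, by RefSeq class, made up 14151 of the listed genes and 70.3% of all counts. Long noncoding RNAs made up 679 of the listed genes and 0.603% of counts, and 157 of them reached 1 FPKM.

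Globin transcripts were overwhelmingly embryonic on both sides of the haemoglobin molecule. The α-like genes summed to 222155 FPKM and the β-like genes to 229959, a ratio of 0.966. Hba-x supplied 91.3% of the α-like sum, and the adult genes Hba-a1 (14088 FPKM) and Hba-a2 (5211 FPKM) the other 8.69%. On the β-like side Hbb-y supplied 71.0% and Hbb-bh1 27.8%, so that εy exceeded βh1 by 2.56 times. The adult β genes supplied 1.18%, from Hbb-b1 at 2143 FPKM, Beta-s at 503 and Hbb-b2 at 58.96. The balance therefore differed between the loci: Hba-x exceeded the adult α genes by 10.51 times, and the embryonic β-like genes exceeded the adult ones by 84.0 times. Hba-a1, Hba-a2, Hbb-b1 and Beta-s carry fractional counts, as arises where reads are divided between near-identical copies, so the split among them is uncertain, as is the split of the θ genes Hbq1b (51.03 FPKM) and Hbq1a (0.22 FPKM, 1 count). Hbb-b1 and Hbb-b2 are the adult pair of one mouse haplotype of the locus, and Beta-s belongs to another. The 3 embryonic genes and Hbb-b2 have whole counts. In all, globins took 25.01% of the counts with ribosomal RNA included (interval 24.98% to 25.04%).

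In RefSeq on GRCm38.p6 the α-like genes lie on chromosome 11, namely Hba-x (32276600 to 32278116), Hba-a1 (32283672 to 32284486) and Hba-a2 (32296492 to 32297310), all on the plus strand. The low θ gene Hbq1b (32286964 to 32287912) lies between the adult pair. The β-like genes lie on chromosome 7 on the minus strand, with Hbb-y (103851754 to 103853207) upstream of Hbb-bh1 (103841638 to 103843162) and Beta-s (103826523 to 103827928) beyond it. Ahsp, the chaperone that holds free α chains, stood at 776 FPKM (749 to 804), so that the summed α-like level exceeded it by 286 times.

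**Figure D2:**
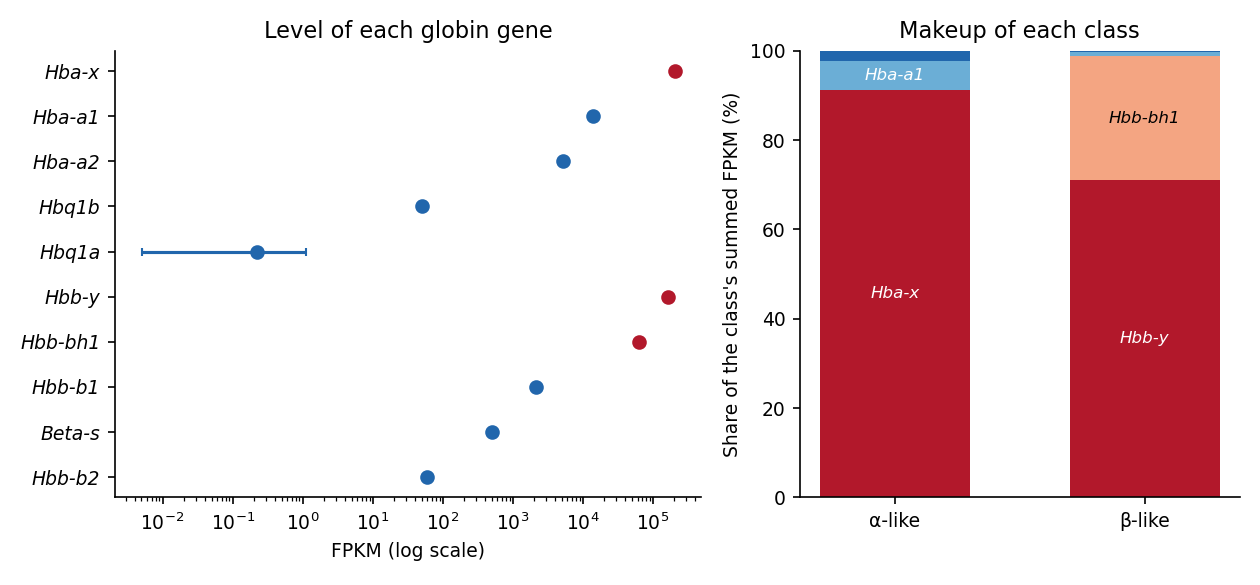
Left, the level of each globin gene in FPKM on a log axis with its exact 95% counting interval (smaller than the point except for Hbq1a), embryonic genes in red and the others in blue. Right, the makeup of the α-like and β-like sums in percent, with Hba-x and Hbb-y in dark red, Hbb-bh1 in pale red and the adult genes in blues: Hba-x fills 91.3% of the first bar and Hbb-y and Hbb-bh1 71.0% and 27.8% of the second.

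Enzymes of heme synthesis were expressed at far from equal levels. The erythroid first enzyme Alas2 led at 406 FPKM (7368 counts), against 1.28 FPKM for Alas1, the form used by other tissues, a 317-fold difference. In the order of the reactions, Alad stood at 47.8 FPKM, Uros at 44.4, Urod at 188, Cpox at 376 (11172 counts), Ppox at 31.1 and Fech, which inserts the iron, at 172. The levels formed a high set (Alas2, Cpox, Urod and Fech, all above 150 FPKM) and a low set (Alad, Uros and Ppox, all below 50). Neighbouring steps could differ sharply: Cpox exceeded Ppox, the enzyme that follows it, by 12.1 times (10.9 to 13.5 from the bounds of both intervals). The median of the list was 172 FPKM, beside 1.72 over all listed genes.

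Iron handling was led by storage and by delivery to mitochondria. The ferritin chains were the most abundant, Fth1 at 4478 FPKM and Ftl1 at 3262, a ratio of 1.37 (1.34 to 1.40). Slc25a37 (mitoferrin), which brings iron into mitochondria, stood at 753 FPKM, 182 times its relative Slc25a28. Its partner Abcb10 stood at 78.2 FPKM, 9.63 times lower than the carrier (9.20 to 10.1). Glrx5, needed for iron-sulfur clusters, stood at 507 FPKM, and Blvrb, a biliverdin reductase, at 327. Tfrc exceeded its relative Tfr2 (5.92 FPKM) by 36.5 times, while Ncoa4, the receptor that sends ferritin for breakdown, stood at 159 FPKM. The iron exporter ferroportin (Slc40a1, 4.60 FPKM) and the heme exporter Mfsd7b (12.5 FPKM) stood far below Tfrc. Of the heme oxygenases, which open the heme ring, Hmox2 stood at 7.69 FPKM and the inducible Hmox1 at 0.47 (7 counts, 0.19 to 0.97 FPKM), and transferrin itself (Trf) had 0 counts. Of the 28 genes in the tables, 27 were detected and 26 reached 1 FPKM, with a median of 20.6.

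**Figure D3:**
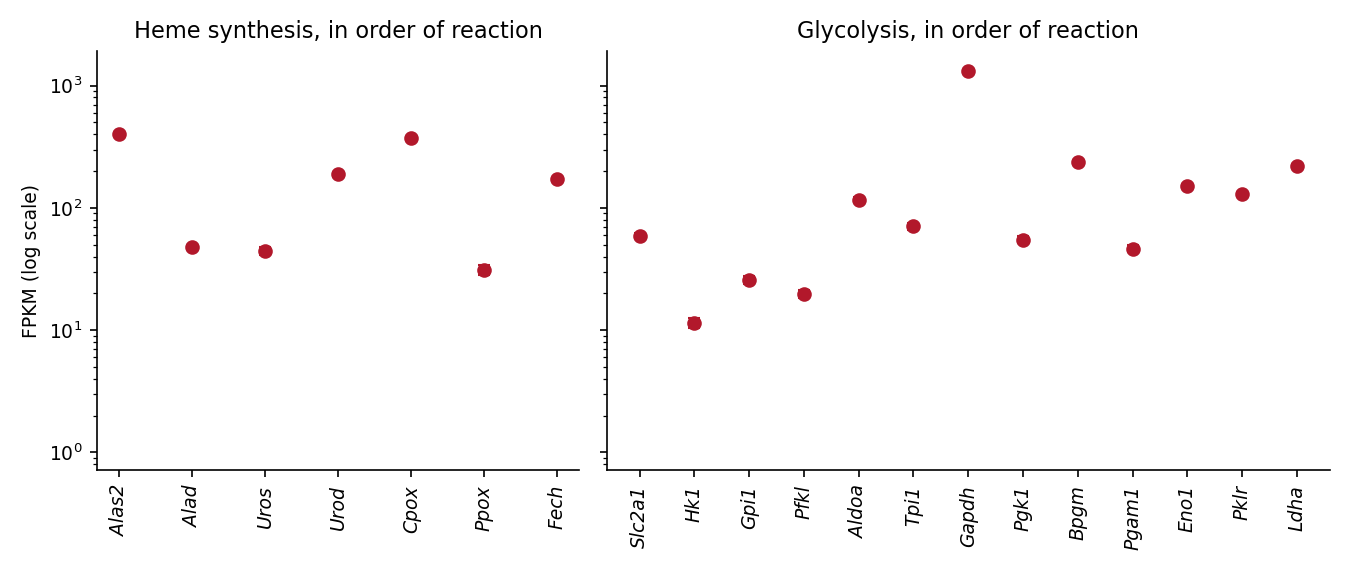
Level of each enzyme described in FPKM (log scale) with exact 95% counting intervals, which are about the size of the points, for heme synthesis (left) and glycolysis (right) in the order of the reactions, starting for glycolysis with the glucose transporter. Heme enzymes fall into a set above 150 FPKM and a set below 50 FPKM, and in glycolysis the early steps from Hk1 to Pfkl lie below the later ones.

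The 15 listed genes of the membrane skeleton were all expressed, 10 of them within 2-fold of their median level. Protein 4.1 (Epb4.1) stood at 121 FPKM, ankyrin (Ank1) at 74.9, α-spectrin (Spna1) at 65.95 and β-spectrin (Spnb1) at 57.8. The spectrin chains, which pair with each other in the protein, stood at a ratio of 1.14 per length (1.08 to 1.20), and Ank1 at 1.30 times Spnb1 (1.23 to 1.37). Actin (Actb, 428 FPKM, fractional counts) led the list, and protein 4.2 (Epb4.2) stood at 59.4 FPKM. All 15 members reached 1 FPKM, with a median of 52.2, and the lowest was Mpp1 (p55) at 1.27 FPKM (29 counts).

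Band 3 was by far the most abundant gene of the surface list. Slc4a1 was 13.98 times Ank1 (13.5 to 14.5), the adaptor that fixes it to spectrin. Bsg stood at 155 FPKM, the erythroid membrane protein Ermap at 149, the Rh glycoprotein Rhag at 101, the erythropoietin receptor Epor at 70.2, and the blood-group proteins Kel and Xk, which form a complex, at 54.1 and 37.6 (ratio of Xk to Kel 0.696, 0.628 to 0.771). Rhag exceeded Rhd by 2.54 times. Some genes of red-cell or erythroid surfaces were nearly silent: the water channel Aqp1 (2 counts), the adhesion receptors Cd44 (5 counts) and Itga4 (23 counts, 0.25 FPKM), Bcam (4 counts) and the Duffy antigen Darc (6 counts). Of 22 members in the tables, 17 reached 1 FPKM, with a median of 37.2.

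The erythroid transcription factors were present as a group at moderate levels. Of 29 in the tables all were detected, 25 reached 1 FPKM and the median was 23.9. Hemgn, a nuclear protein of haematopoietic cells, led at 265 FPKM (259 to 272), followed by Tal1 at 93.6 (90.6 to 96.7), Klf1 at 90.3 and Myc at 88.2. The intervals of Tal1, Klf1 and Myc overlap. Ikzf1 (Ikaros) stood at 57.9 FPKM and Gfi1b, a repressor needed for red cells, at 40.2. Members of the complex that joins Gata1 to Tal1 were unequal: Tal1 was 3.91 times Lmo2 (23.9 FPKM), and Ldb1 (38.5 FPKM) was 1.61 times Lmo2. Gata1 exceeded its cofactor Zfpm1 (FOG1, 23.9 FPKM) by 1.52 times (1.30 to 1.76). The lowest were regulators known for progenitors or for silencing embryonic globins in definitive cells. Bcl11a stood at 0.15 FPKM (4 counts), Sox6 at 0.22 (18 counts) and Myb at 0.33 (11 counts, 0.16 to 0.59 FPKM). Nr2c1, a nuclear receptor that binds embryonic globin promoters, stood at 0.98. Not all such regulators were low: Nr2c2, the relative of Nr2c1, stood at 11.5 FPKM (831 counts) and Zbtb7a at 11.4 (575 counts).

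Genes of oxidant defence and gas transport led the maturation list. Glutathione peroxidase Gpx1 stood at 1870.4 FPKM, superoxide dismutase Sod1 at 935 and peroxiredoxin Prdx2 at 916. Carbonic anhydrase was almost all Car2 (1004 FPKM, 16609 counts), while Car1 had 0 counts. Bpgm, which makes the 2,3-bisphosphoglycerate that loosens oxygen from haemoglobin, reached 239 FPKM. The ubiquitin-conjugating enzyme Ube2l6 stood at 135 FPKM and Trim10 at 67.6, and the mitophagy receptor Bnip3l (Nix), which clears mitochondria from late red cells, at 36.8. Trim58 (4.65 FPKM), which acts in enucleation, was low, and Alox15, the lipoxygenase of reticulocytes, had 1 count. Of 31 members 29 reached 1 FPKM, with a median of 16.6.

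Genes for making protein formed the largest of these lists after the globins. The 86 cytosolic ribosomal protein genes held 9.94% of the FPKM with a median of 766, led by Rpl41 at 2849, Rpl13 at 2305 and Rps2 at 2016. Of the 85 with at least 3 counts, 64 lay within 2-fold of the median, and Rpl39l, a copy of Rpl39, had 0 counts. The 30 highest genes of the library held 16 of these genes and 6 globins. The lowest with 3 counts or more was Rps4y2 at 12.5 FPKM, and Rpl7l1, a ribosomal-like protein, stood at 13.99. Mitochondrial ribosomal proteins (78 genes) were lower by more than an order of magnitude, with a median of 17.8 FPKM and Mrpl18 highest at 99.8. All 33 translation factors reached 1 FPKM (median 107), led by the elongation factor Eef1a1 (2139, fractional counts), Pabpc1 (961) and Eif5a (714), while Pdcd4, an inhibitor of the helicase Eif4a1, was lowest at 3.09. Ribosome assembly factors had a median of 28.3 FPKM, with nucleophosmin (Npm1) at 945, Fbl at 184 and nucleolin (Ncl) at 168, and Utp20 lowest at 8.45.

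Protein folding and breakdown were also well represented. The chaperone Hspa8 reached 1348 FPKM, Hsp90ab1 765 and Hsp90aa1 433, with a median of 87.9 over 28 chaperones. The stress-inducible Hspa1a had 4 counts and Hspa1b 0. Proteasome subunits split by part of the particle: the 20S core had a median of 108 FPKM over 17 genes, the ATPases of the cap 54.6 over 6 and the other cap subunits 37.6 over 14. Psma5, Psmb7 and Psma7, at 193, 168 and 151 FPKM, led the core. The core also holds subunits of special tissues, and these were the scarce ones: Psma8 of testis at 0.32 FPKM, Psmb11 of thymus at 0.16 (fractional counts) and the immunoproteasome subunit Psmb10 at 4.37.

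Nuclear genes of mitochondrial respiration were nearly all expressed, with 82 of 83 genes at 1 FPKM or more and a median of 60.2. By complex, the medians were 151 FPKM for ATP synthase (17 genes), 106 for complex IV (13), 71.9 for complex III (9), 52.1 for complex II (4) and 42.3 for complex I (37). Atp5b led at 1127 FPKM, followed by Cox7c at 423 and Cox6a1 at 310.3. Cox7a1, the form of heart and skeletal muscle, had 0 counts, and the lowest detected was Atp5sl at 1.36. Genes of the mitochondrial genome itself were searched for by symbol, and none was found among the listed genes. Their transcripts are therefore not described.

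Glycolysis was uneven along its course. Slc2a1, the glucose transporter, stood at 59.4 FPKM, Hk1 at 11.5, Gpi1 at 25.5 and Pfkl at 19.9. Later steps were higher, with Aldoa at 117 FPKM, Tpi1 at 70.5, Gapdh at 1326 (fractional counts), Pgk1 at 54.8, Eno1 at 152 and Ldha at 220.4. Pyruvate kinase came mainly from the red-cell and liver gene Pklr (129.8 FPKM), which exceeded Pkm by 3.27 times (2.96 to 3.62). Bpgm exceeded its relative, the mutase Pgam1 (46.5 FPKM), by 5.14 times. Hk2 was lowest at 0.52 FPKM, and 17 of 19 members reached 1 FPKM (median 46.5).

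The cells carried the transcripts of dividing cells. All 40 DNA replication genes and all 31 mitosis genes in the tables reached 1 FPKM, with medians of 25.4 and 22.5. Pcna, the sliding clamp of the polymerase, stood at 291 FPKM, the helicase subunit Mcm6 at 66.5 and ribonucleotide reductase Rrm1 at 59.5, with Gins3 lowest at 2.38. Mki67, the proliferation antigen, reached 209 FPKM from 20003 counts, Ube2c 152 and cyclin A (Ccna2) 87.1, with Anln, which acts in cytokinesis, lowest at 9.22. Histones followed: 68 of 75 reached 1 FPKM (median 34.5), led by Hist1h4d at 1086 and the replacement histone H2afz at 1048. The third, Hist2h3b at 586, is 1 of 57 histone genes with fractional counts, and Hist1h2ad had 0 counts. Among the CDK inhibitors, which halt division, none stood out: Cdkn1a (4.73 FPKM) and Cdkn2d (4.63) led at nearly equal levels.

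Noncoding transcripts took little of the library, but some were abundant. H19, an imprinted RNA of embryonic tissues, stood at 529 FPKM (520.0 to 538) from 12827 counts, the nuclear RNA Malat1 at 325 and Gas5 at 97.1. Neat1 stood at 0.61 FPKM (18 counts) and Mirg had 0 counts. Of 27 imprinted genes in the tables, 17 reached 1 FPKM (median 3.81). Gnas, a G protein subunit, at 258 and the growth inhibitor Grb10 at 129.6 followed H19, while Igf2, the neighbour of H19 that shares its control region, stood at 17.7. Zim1 was the lowest with at least 3 counts (8 counts), and Slc22a18 had 0. Transcripts of both X inactivation and the Y chromosome were read in the pool, Xist at 12.7 FPKM (1818 counts) and Eif2s3y at 14.3 (236 counts), Ddx3y at 2.87, Kdm5d at 1.69 and Uty at 0.83. These Y-linked genes were chosen after their values were seen.

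The microRNA machinery was present at low to moderate levels. Drosha stood at 7.54 FPKM (324 counts, 6.74 to 8.41 FPKM) and its partner Dgcr8 at 8.01 (7.15 to 8.94), with overlapping intervals. The helicases Ddx5 (99.7 FPKM) and Ddx17 (54.7), which assist Drosha, were higher, as were the silencing factor Tnrc6b (34.5) and the Argonaute Eif2c2 (Ago2, 24.9), known for cutting its target. Eif2c2 exceeded Eif2c1 by 4.85 times, and Eif2c4 had 0 counts. Prkra, a partner of Dicer, was lowest at 1.27 FPKM. Of 15 genes in the tables, 14 reached 1 FPKM, with a median of 7.54.

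Several abundant genes belong to none of the lists. Anp32b, a nuclear histone chaperone, stood at 1992 FPKM, cyclophilin A (Ppia) at 1195, Tpt1 at 962 and prothymosin (Ptma, fractional counts) at 839. Gnb2l1 (RACK1), a scaffold on the small ribosomal subunit, stood at 578 FPKM, Oaz1, the brake on polyamine synthesis, at 541, Nudt4 at 516, Mgst3, a membrane glutathione transferase, at 499, the actin-binding Pfn1 at 432 and selenoprotein W (Sepw1) at 431. Next came Naca, which binds nascent chains (353 FPKM), Tmem14c, a mitochondrial carrier of porphyrin in heme synthesis (347), the splicing factor Srsf2 (344), the GTPase Ran of nuclear transport (329) and cofilin (Cfl1, 310.5). The list of 20 closed with Csda, a Y-box protein that binds RNA (298 FPKM), Hdgf (294), Nap1l1, a histone chaperone (280.0), the cold-induced Rbm3 (276) and Hnrnpa2b1 (273). A predicted gene of 334 bases, Gm20594, was also among the very highest, at 20239 FPKM from 51120 counts, above Hba-a1. What its reads come from was not tested.

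Gene families differed in how far 1 member led. In 23 of 62 paralogue families the leading gene held 90% or more of the family's FPKM, in 31 it held 50% to 90% and in 8 less. The median share was 81.1%. A leader of 14 families with 2 members in the tables holds at least 50% by construction. Of the 48 larger families, the leader held 90% or more in 15 and 50% to 90% in 25. Sharply exclusive choices included Alas2 (99.7% of the ALA synthases), Slc4a1 (99.7% of the anion exchangers), Car2 (99.7% of 12 carbonic anhydrases), Gata1 (98.9% of 6 GATA factors, with Gata2 at 0.36 FPKM) and Myc (99.1%, with Mycn at 0.62 FPKM). Gfi1b, Zfpm1 and Ucp2 were accompanied by Gfi1, Zfpm2 and Ucp3 at 0 counts. Among housekeeping enzymes Ldha held 98.6%, Eno1 98.3%, Hk1 95.1% and Aldoa 99.9% of their families. Eif2ak1, the kinase that slows translation when heme is short, held 94.45% of the eIF2α kinases at 71.02 FPKM, and Dnmt1, the maintenance DNA methyltransferase, held 92.8% at 38.7.

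The D cyclins were led by Ccnd3 at 183 FPKM (89.3%), ahead of Ccnd2 at 17.8, and the aquaporins by Aqp3 at 31.9 (83.7%), ahead of Aqp8 at 3.94. Pim1 held 91.8% of the PIM kinases at 49.7 FPKM, Tet3 80.2% of the TET enzymes at 9.25 and Ywhae 55.8% of the 14-3-3 proteins at 449. Klf1 was followed by Klf3 (40.3 FPKM), and Mt2 exceeded Mt1 by 2.70 times (2.50 to 2.92). Families without a leader above 50% were the NFE2 factors (Nfe2l2 40.3 and Nfe2 32.9 FPKM), the STATs (Stat3 10.3 and Stat5b 7.38), the E2F factors (E2f4 54.8 and E2f2 24.97), the retinoblastoma proteins (Rbl2 6.57 and Rbl1 6.18), the CDK inhibitors, the SOCS proteins (Socs4 8.87 and Cish 6.07), the GABARAP and LC3 proteins (Gabarap 25.9 and Map1lc3b 24.9) and the linker histones. In the actins, α-tubulins, tropomodulins and linker histones the leader has fractional counts.

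**Figure D4:**
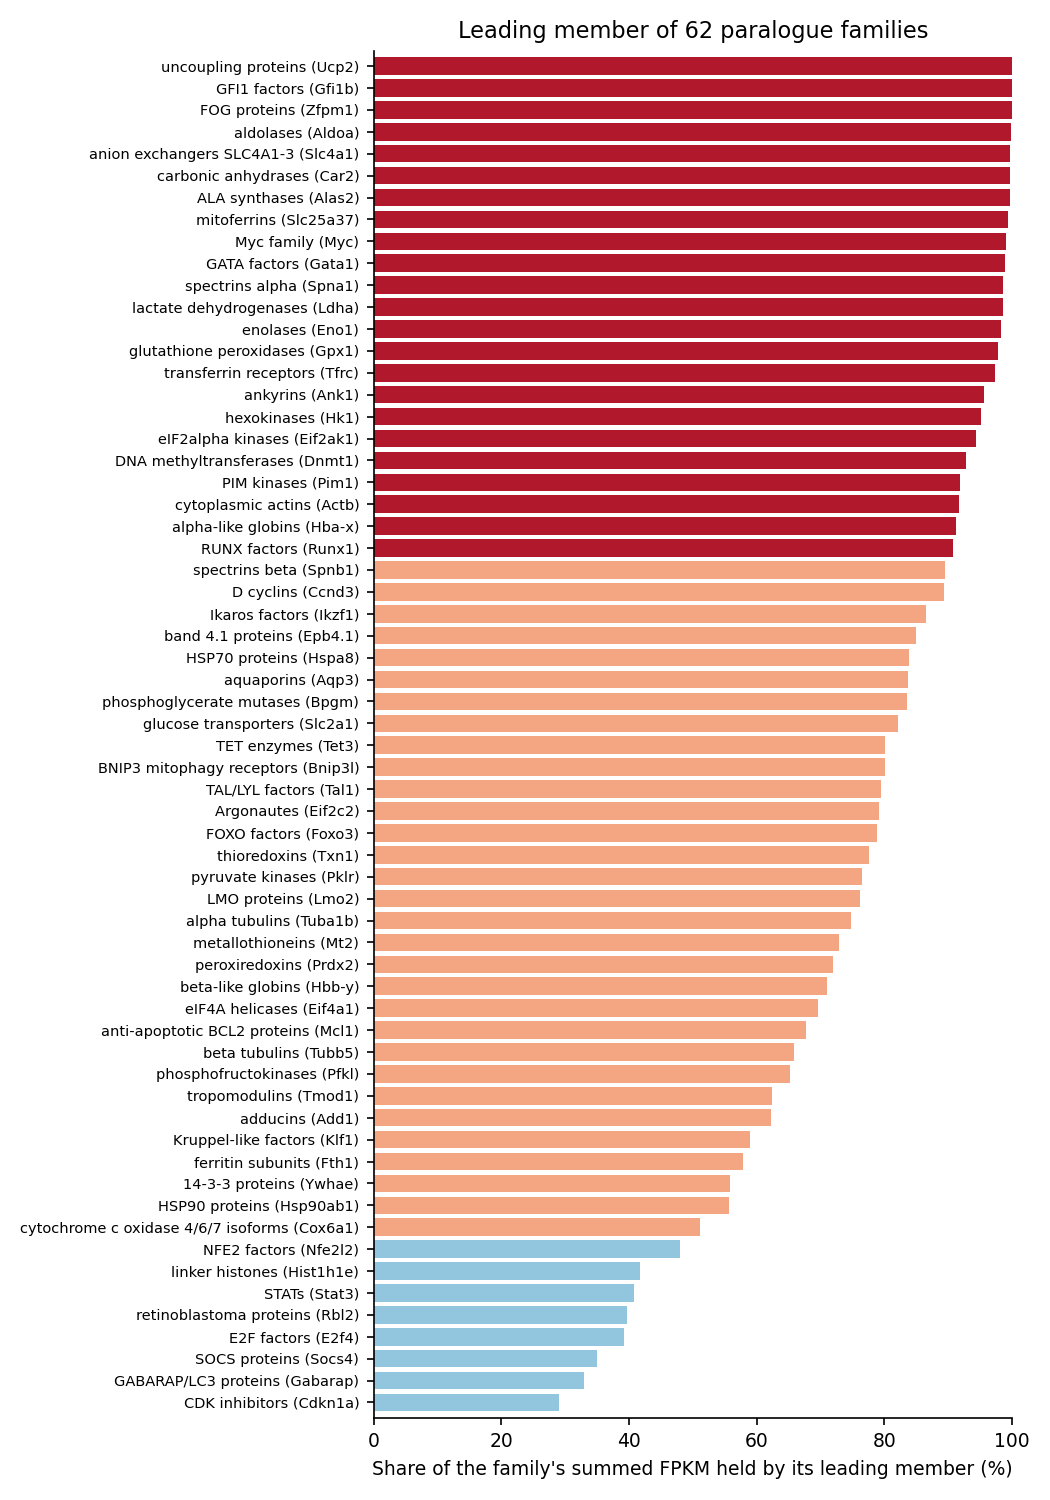
Each bar is the share (in percent, from 0) of a paralogue family's summed FPKM held by its leading member, named in brackets, for 62 families. Dark red marks 90% or more (23 families), pale red 50% to 90% (31) and blue under 50% (8), the last running from the NFE2 factors down to the CDK inhibitors.

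Large families of developmental and tissue-specific genes were nearly silent. Of 35 Hox genes in the tables, 4 reached 1 FPKM, the highest being Hoxc6 at 1.86. None of 7 Pax, 10 Tbx, 15 Wnt, 9 Bmp and 11 keratin genes reached 1 FPKM, and their highest members were Pax6 (0.75 FPKM), Tbx3 (0.36), Wnt4 (0.61), Bmp5 (0.26) and Krt19 (0.99). The same held for 18 ephrins and Eph receptors (Efnb2 0.72 FPKM) and 7 voltage-gated sodium channels (Scn7a 0.13). Of 36 collagens 2 reached 1 FPKM, Col18a1 leading at 5.58, of 17 Sox genes 3, Sox11 leading at 3.16, and of 25 cytochrome P450 genes 1 did, Cyp20a1 at 7.26. Olfactory receptors had 19 rows, beside 1110 protein-coding genes of that family in RefSeq, and each gene listed in either table had counts in at least 1 of its libraries.

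Single members stood out from such quiet families. Of 56 potassium channel genes 4 reached 1 FPKM, and Kcnn4, the calcium-gated Gardos channel of red cells, stood at 32.96 (594 counts). Of 10 claudins 2 did, with Cldn13 at 14.2. Beside the 56.3% of all listed genes at 1 FPKM or more, the share was 69.0% for Slc25 mitochondrial carriers (29 of 42) and 45.9% for other solute carriers (102 of 222). It was close to that of all genes for Zfp zinc fingers (194 of 351, 55.3%), Rab GTPases (30 of 55, 54.5%) and kinesins (22 of 41, 53.7%). After Slc4a1 the solute carriers outside Slc25 were led by Slc39a8, a zinc and manganese importer (231 FPKM), and Slc43a3 (106), named after their values were seen. Zfp207 (93.1 FPKM), Rab7 (164), Kif2a (49.1) and Casp2 (15.7) led their families.

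Most markers of other cells were at the edge of detection. Of 142 such genes in the tables, each counted once, 114 were detected but 19 reached 1 FPKM (13.4%, beside 56.3% of all listed genes), with a median of 0.175 FPKM and 3.5 counts, and 28 had 0 counts. Only 4 had 100 counts or more: Csf2rb (66.2 FPKM, fractional counts), the shared β chain of cytokine receptors, and Mllt3 (31.4), both on the progenitor list, Fn1 (9.74) and the integrin Itgb3 (5.72). Progenitor markers were otherwise low, Runx1 at 1.19 FPKM, Kit at 0.25 (12 counts) and Cd34 at 0.33. In bulk RNA, few cells of another type and little RNA per cell cannot be told apart.

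By cell type, endothelial genes ranged up to Egfl7 at 1.10 FPKM with Kdr at 0.43 (22 counts), Cdh5 at 0.32 (12 counts) and Sox17 at 0. Of 15 macrophage and myeloid genes 2 reached 1 FPKM, Lyz2 (2.34) and Cd68 (1.90), while Fcgr1 and Itgam had 0 counts. Megakaryocyte and platelet genes reached 1 FPKM in 4 of 11 cases, with Itga2b at 2.46 and Tubb1 at 2.28 after Itgb3, and Gp5, Gp1bb and Clec1b at 0. All 18 neural markers were detected, Tubb3 (3.67 FPKM), Nes (1.47) and Dcx (0.59) by the most counts. Of 16 muscle genes 7 had 0 counts, among them Myh7 and Nppa, and Actc1 (1.51) and Tnnt2 (1.5) were highest. The liver and endoderm genes Ttr, Apob and Apoa1 had 0 counts. None of the 4 lymphoid (3 counts together) and 10 epithelial markers listed reached 1 FPKM. Mesenchymal genes after Fn1 were led by Meox1 (1.12 FPKM) and Twist1 (1.18), and the germ line and placental lists by Nanog (1.06, fractional counts) and Ascl2 (1.36). Summed over the lists, progenitor markers came to 102 FPKM, most of it from Csf2rb and Mllt3, mesenchymal to 13.9, megakaryocyte and platelet to 13.5, neural to 10.99, myeloid to 6.47, muscle to 5.09, endothelial to 4.31 and liver to 0.32, beside 1047 for Slc4a1 alone.

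**Figure D5:**
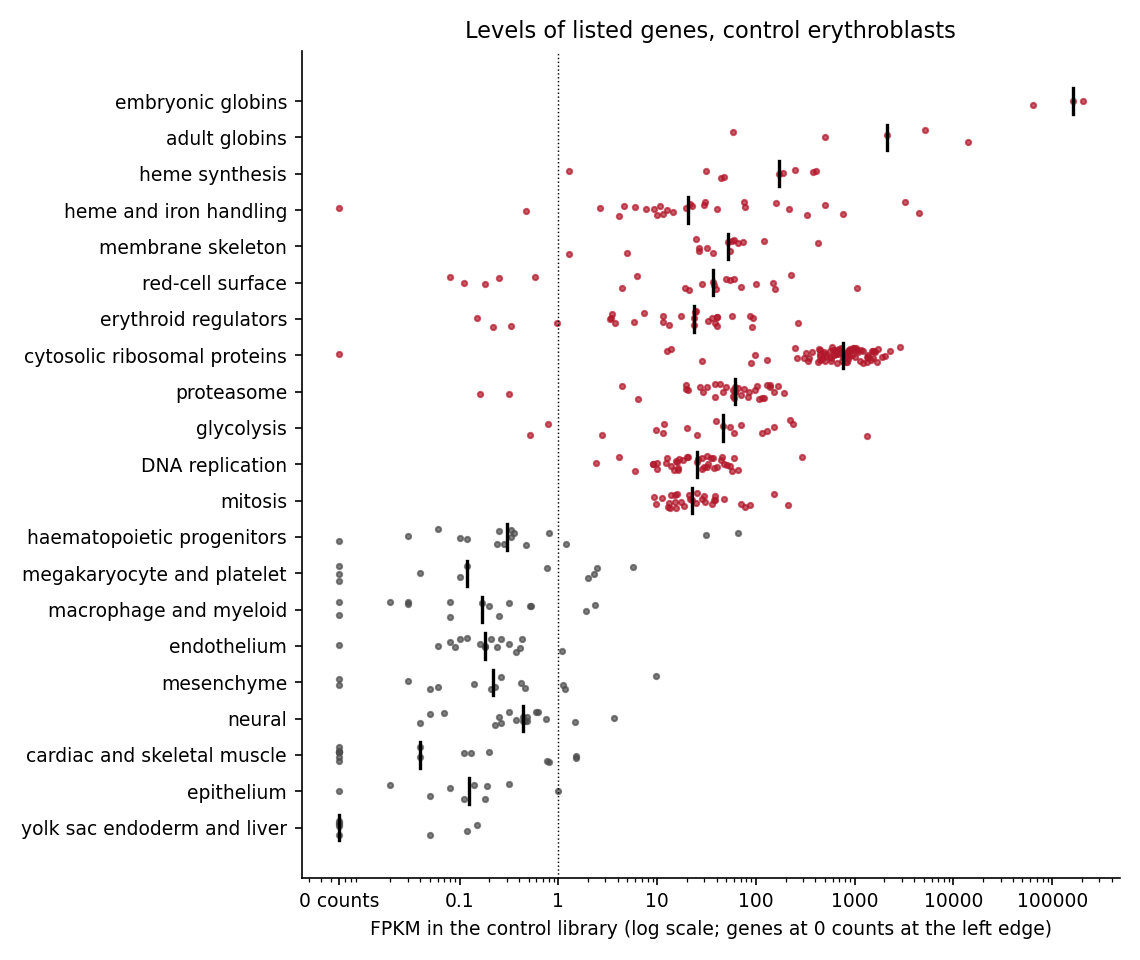
Each point is 1 gene at its level in FPKM (log scale, genes at 0 counts at the left edge), with 12 of the erythroid and housekeeping lists in red, 9 lists of other-cell markers in gray, a black tick at each list's median and a dotted line at 1 FPKM. The red lists drawn have medians above 10 FPKM and the gray lists drawn below 1 FPKM, with Csf2rb, Mllt3, Fn1 and Itgb3 the highest gray points.

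The letters of the promoter windows were counted over all 32851 RefSeq windows of the same length, on both strands. GATAA was found in 25.4% of all windows, CCACCC in 31.5%, TATAAA in 13.6%, CCAAT in 37.4%, and GATAA together with CCACCC in 6.37%. Of 37 windows of genes at 1000 FPKM or more, 14 (37.8%) held GATAA, 16 (43.2%) CCACCC and 6 (16.2%) both. GATAA shares were 20.8% from 100 to 1000 FPKM, 15.5% from 10 to 100, 15.6% from 1 to 10, 18.0% above 0 to 1 and 20.1% at 0 counts. Both windows of the embryonic globins held GATAA and CCACCC. Red-cell surface genes held GATAA in 11 of 24 windows (45.8%) and CCACCC in 12, but heme synthesis genes held GATAA in 3 of 10 and erythroid regulators in 10 of 38 (26.3%). CCAAT was found in 20 of 27 windows of mitosis genes (74.1%) and 21 of 35 of replication genes (60%). Windows of 1 gene with several starts overlap, motif letters also occur by base composition, and no test was made of these shares.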

How the data were processed

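Total RNA of 3 libraries, 1 in each group, was sequenced, and the control library was used here. Per the file headers, the deposited tables give expected counts, the authors' estimates of reads per gene (fractional for 983 control genes) and FPKM made from them. The FPKM values are the authors' counts per effective length, a median of 62.7 bases under the listed length, scaled to library size, with 0.001 entered at 0 counts and read here as 0. For the aligner, counter, annotation and build, nothing is stated (not given in the sources used here). With 14640 and 14300 genes, the tables share 13882 genes, whose control values differed for 0, and were joined into 15058 genes. The listed length differed for 2295 of the shared genes, and the mean length was used. RefSeq names matched 15022 of their IDs (99.8%), and 22 symbols turned into dates were restored by ID.

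Shares are of summed counts or FPKM, with exact Clopper-Pearson intervals, and levels carry exact Poisson intervals, both at 95%. Fractional counts were rounded to whole numbers for both kinds of interval. The intervals were tested on simulated counts, the outcome of which is not reported here. No test across samples was possible with 1 library per group, and no samples were compared. Total depth was 9497434 counts, and a gene counted as detected at 1 count. The lists, families and markers were chosen with earlier results of these data known. Named are the markers, the 30 highest genes by FPKM and 10 by counts, the 20 highest on no list, and the extremes and zeros of lists and families, with long runs summarised and some genes not reported here. Other heme and glycolysis steps, partner genes and Y-linked genes were added after their values were seen. Alternatives were other thresholds, TPM, counts without length, and leaving out ribosomal RNA or fractional genes. Computations ran in Python 3.11.15 with pandas 2.3.3, SciPy 1.17.1 and NumPy 2.4.6, and plots were drawn with matplotlib 3.10.9.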

Additional observations from a re-analysis of the deposited data

How the results depend on the processing

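With 1 library, no value here has an error that covers pools or preparations. Shares depended on the denominator: globins took 25.01% of all counts, 35.1% without ribosomal RNA and 62.1% of FPKM, and the 10 most abundant genes took 54.7%, 37.8% and 66.2%. The α-like to β-like ratio was 0.966, 0.981 from counts without length, 0.892 without fractional genes and 0.968 from counts over listed length, an alternative chosen after seeing the data. The embryonic share of globin FPKM was 95.1%, 95.5% by counts and 99.99% without fractional genes, which removes most adult genes by construction. Genes at 1 FPKM or more numbered 8474, between 7805 and 9538 under the TPM, 0.5 FPKM and whole-count alternatives, and 5067 at 5 FPKM. Markers of other cells at the threshold numbered 19, 29 at 0.5 FPKM and 4 at 5 FPKM. Detected genes numbered 11728 at 3 counts and 9927 at 10. List medians stayed within 1.5 times under TPM for 22 of 23 lists, the noncoding list moving because ribosomal rows leave it. TPM here is nearly FPKM times a constant of 1.37. For lists without ribosomal rows this outcome was therefore fixed in advance. The leading paralogue was the same in 60 of 62 families by counts and in 58 without fractional genes. The alternative by protein length was not run. No paired analysis was possible because each group had 1 library and no test was made.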
